A study of Mus musculus with 16 samples.

Results

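The genotype by bicarbonate interaction is the response of the IRR knockout kidney to an alkali load minus the response of the wild-type kidney to the same load. It was computed for each gene as bicarbonate minus water in the knockout, minus bicarbonate minus water in wild type, on log2(RPKM + 0.1), where RPKM is a read count scaled to transcript length and library size. A positive value means that the knockout moved further up, or less far down, than wild type. All 16 of the 16 libraries entered it, in 4 groups of 4, and 12943 of the 13430 genes in the table were tested. The members were chosen by genotype and drink labels and by a floor on low values (RPKM at or above 0.5 in 4 libraries or more). With 4 libraries a group, this floor admits a gene that is high in 1 group alone, which was the case for 1 tested gene, Gm5096.

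Each library came from 1 female C57BL/6 mouse aged 2 to 3 months. Wild-type and IRR(-/-) mice, the latter labelled as a knockout of the receptor gene Insrr, each formed 1 group that drank plain water and 1 group that was loaded with bicarbonate. Loading lasted 7 days, with 250 mM NaHCO3 in the drinking water (pH 8.5), and all 4 groups fasted for 12 h with their drink at hand. RNA was taken from a slice of 3 mm through the middle of the kidney, in which fewer cells of a type and less RNA per cell cannot be told apart. The labels do not give the part of the receptor gene that was removed, whether the null allele is from 1 founder, or whether wild-type mice were littermates.

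IRR, encoded by Insrr, is a tyrosine kinase receptor related to the insulin receptor and is activated by alkaline fluid outside the cell. In the kidney it is known from the intercalated cells of the collecting duct. Type B intercalated cells secrete bicarbonate through the exchanger pendrin, and type A cells secrete acid through a proton pump, the V-ATPase. An interaction asks whether a gene's answer to the load differs between mice with and without the receptor. A gene that answers alike in both has an interaction near 0, however strong its response.

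Insrr itself was lower but present in the knockout libraries, at 3.31 to 4.11 RPKM against 4.20 to 6.73 RPKM in wild type. Its interaction was 0.20 ± 0.19 (SE, n = 4 per group, 95% interval -0.20 to 0.60, limma adjusted p = 0.800), and 0.11 without library 3 of wild type on bicarbonate. Kidney markers were present in the slices, with 16 of 16 proximal tubule and 7 of 7 podocyte genes in the table. So were 12 of 13 genes for collecting duct water and medullary osmolytes, and 1 of 9 adrenal genes. The median RPKM of a library ranged from 8.44 to 8.92. Mitochondrially encoded genes took 69.6% to 74.2% of the summed RPKM in wild-type libraries and 82.6% to 84.9% in knockout libraries. The first principal component (25.4% of the variance) also separated the genotypes, at -33.5 to -24.2 in wild type and 21.4 to 32.4 in the knockout. The source of this split was not tested. Library 3 of wild type on bicarbonate stood apart from all others on the second principal component, at -50.8. Its value for Kap, an abundant androgen-regulated proximal tubule gene, was 742 RPKM, while its group's other 3 values were 7148 to 9256 RPKM, so the interactions and list medians that leaving it out moved by over 1.5 times are also given without it. No depth can be read from RPKM. The p-values set a difference against the spread between animals within groups, pooled over all groups.

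Few genes passed the threshold for a different answer to the load by genotype. The interaction passed an adjusted p of 0.05 for 2 of 12943 genes (0.0155%), Sh3bp5l and Gm5096, both positive, by limma with Benjamini-Hochberg adjustment over all tested genes. Gm5096 reached the floor through its wild-type water libraries alone and so had to differ, which leaves Sh3bp5l as the 1 call among genes at or above the floor in 2 groups or more. At an unadjusted p under 0.05 stood 1060 genes (8.19%), of which 543 were positive (4.2% of those tested) and 517 negative (3.99%). Whatever the p, 53.4% of tested genes had a positive interaction and 46.6% a negative one, and the counts in gene lists are to be read against these shares. The median interaction of all tested genes was 0.02 and the 5th and 95th percentiles were -0.55 and 0.62. The absolute interaction was over 1 for 519 genes (4.01%). The median half-width of a 95% interval was 0.44, and for 9686 genes (74.8%) the whole interval lay between -1 and 1, so a difference of more than 2-fold between the responses fell outside it.

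The responses themselves were small in both genotypes, and their correlation over genes was weak. In wild type 18 of 12943 genes passed (0.139%), 5 higher and 13 lower after bicarbonate. In the knockout 3 passed (0.0232%), 1 higher and 2 lower. The 2 responses share no library. Over the 12943 tested genes their Pearson correlation was 0.02 and Spearman's rho 0.06, and over the 6275 genes with a mean RPKM of at least 10 these were 0.09 and 0.10. These are descriptions across genes, which are not independent, and the spread between animals pulls them towards 0. The median SE of a response was 0.14 in each genotype. The 5th and 95th percentiles of the responses were -0.44 and 0.45 in wild type and -0.36 and 0.44 in the knockout. The sign was the same in both genotypes for 51.8% of genes. Both responses had an unadjusted p under 0.05 for 208 genes. They are 13.4% of the 1549 such genes in wild type, while 7.99% of all tested genes had such a p in the knockout. They are 20.1% of the 1034 such genes in the knockout, while 12% of all tested genes had such a p in wild type. Of the 208, 118 were lower in both, 49 higher in both and 41 went in opposite directions.

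**Figure D1:**
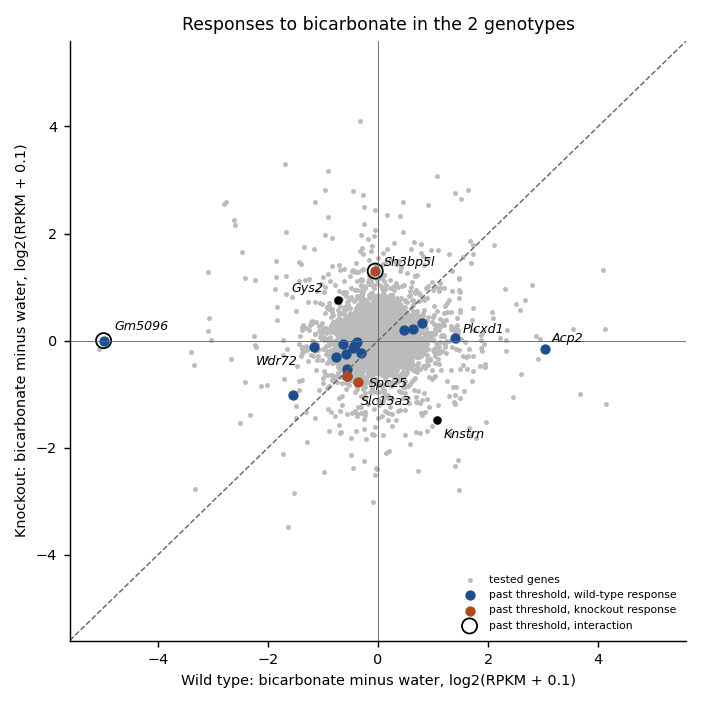
Each point is 1 of 12943 tested genes, with the wild-type difference of bicarbonate minus water on the x axis and the knockout difference on the y axis, both on log2(RPKM + 0.1), and the dashed line marks equal responses. Sh3bp5l lies above the line on the vertical axis, Acp2 far out on the horizontal one, Knstrn at the lower right, and Slc13a3, past the threshold in both genotypes, near the dashed line.

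Sh3bp5l, a guanine nucleotide exchange factor of the SH3BP5 family that acts on Rab GTPases, had the smallest p among genes with values above 0 in every library. It read 6.11, 6.32, 7.14 and 6.37 RPKM in unloaded wild type and 7.29, 5.54, 5.71 and 6.58 RPKM in loaded wild type. In the knockout it read 5.34, 5.25, 5.12 and 5.45 RPKM on water and 12.6, 16.01, 9.43 and 15.7 RPKM on bicarbonate. The 4 loaded knockout libraries were above all 12 others, which lay between 5.12 and 7.29 RPKM. The response was -0.05 in wild type (limma adjusted p = 0.929) and 1.30 in the knockout (adjusted p = 0.00227). The interaction was 1.35 ± 0.20 (SE, 95% interval 0.92 to 1.78, adjusted p = 0.0471). The call sat at the edge: it was lost in 18 of 27 alternatives, at adjusted p from 0.0541 to 0.137, while the estimate stayed between 1.22 and 1.38 in those. No other annotated gene overlaps Sh3bp5l (GRCm38 chr11:58330724-58347728, protein coding, forward strand).

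The 250 bases before the annotated start of 3 of the genes described here are printed to show the regions from which they are transcribed, Sh3bp5l for its call and the kinetochore genes Knstrn and Spc25 as members of the cell division genes. The sequences are RefSeq windows on GRCm38.p6, read 5′ to 3′ on the strand of the gene. Capitals mark CCAAT and TTTGAA, searched on both strands, 2 short motifs common in promoters of cell cycle genes.
Sh3bp5l, chr11:58330457-58330706, forward strand: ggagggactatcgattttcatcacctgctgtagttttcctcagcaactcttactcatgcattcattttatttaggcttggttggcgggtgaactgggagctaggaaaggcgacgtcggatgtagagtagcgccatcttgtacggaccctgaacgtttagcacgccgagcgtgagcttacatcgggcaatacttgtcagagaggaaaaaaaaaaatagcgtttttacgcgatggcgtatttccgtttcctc
Knstrn, chr2:118813753-118814002, forward strand: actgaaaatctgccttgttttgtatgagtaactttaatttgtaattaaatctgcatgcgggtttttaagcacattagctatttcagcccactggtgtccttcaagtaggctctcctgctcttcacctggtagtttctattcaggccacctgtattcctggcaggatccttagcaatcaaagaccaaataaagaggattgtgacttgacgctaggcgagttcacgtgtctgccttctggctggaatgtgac
Spc25, chr2:69206214-69206463, reverse strand: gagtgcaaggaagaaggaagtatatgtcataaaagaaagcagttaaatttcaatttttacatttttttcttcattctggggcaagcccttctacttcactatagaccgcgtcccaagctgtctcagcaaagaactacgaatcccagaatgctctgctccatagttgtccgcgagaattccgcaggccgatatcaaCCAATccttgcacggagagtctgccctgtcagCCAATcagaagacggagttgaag
The Spc25 window held CCAAT at 2 places and the other printed windows held neither motif. The windows of Cdc20 and Bub3, other cell division genes described here and not printed, each held CCAAT at 2 places and TTTGAA at 1. Of all 32817 RefSeq windows of this length, 33.8% held CCAAT, 16.0% held TTTGAA and 5.54% held both, so a match is common and says nothing here about a factor.

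Gm5096, a predicted protein-coding gene, had the smallest p of all, which is no valid test, since the gene entered the table of tested genes only through the group in which it was high. Its values were 1.49, 3.82, 4.95 and 3.09 RPKM in wild type on water, and it was listed at 0 in all 4 libraries of each other group. It was the sole tested gene listed at 0 in every library of 3 groups. As a description, the limma adjusted p was 0.000697 for the interaction and 6.41e-06 for the wild-type response. An exact 0 may stand for an estimate that failed, and no fold is given. With a pseudocount of 0.01 in place of 0.1 the adjusted p of the interaction was 0.422.

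Knstrn and Acp2 came next and missed the threshold. Knstrn, which encodes kinastrin, a spindle and kinetochore protein, read 0.686, 0.800, 0.430 and 0.746 RPKM in unloaded wild type and 1.24, 1.24, 1.34 and 2.25 RPKM on bicarbonate. In the knockout the order was the other way, at 0.589, 0.941, 0.945 and 1.005 RPKM on water and 0.210, 0.448, 0.185 and 0.178 RPKM on bicarbonate. The groups did not overlap in either genotype, and the directions were opposite. The interaction was -2.55 ± 0.40 (SE, 95% interval -3.40 to -1.70, limma adjusted p = 0.0520). It passed in 7 alternatives at adjusted p from 0.0174 to 0.0498, and the highest adjusted p over the alternatives was 0.168. The estimate ranged from -2.97 to -1.16 over the alternatives and from -2.78 to -2.35 with each library left out. All loaded knockout values lay below the floor of 0.5 RPKM, where the pseudocount of 0.1 affects the size of the interaction. Knstrn shares exonic sequence with an antisense gene, Gm14091, and the sources used here do not say whether the counting used strand.

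Acp2, lysosomal acid phosphatase, had the largest response of any gene called in wild type with values above 0. It read 2.73, 4.57, 3.99 and 5.13 RPKM in unloaded wild type and 35.2, 26.2, 31.3 and 42.8 RPKM on bicarbonate, 2 groups that lie far apart. In the knockout it read 12.3, 22.6, 13.6 and 47.5 RPKM on water and 11.5, 27.5, 19.2 and 19.4 RPKM on bicarbonate, and these groups overlap. Every knockout library on water was above every wild-type library on water. The response was 3.03 in wild type (limma adjusted p = 0.00592) and -0.15 in the knockout (adjusted p = 0.960), and the interaction was -3.18 ± 0.52 (95% interval -4.30 to -2.06, adjusted p = 0.0844). It passed in 3 alternatives, at adjusted p from 0.0347 to 0.0472, among them the fit without knockout water library 4, whose value was 47.5 RPKM. The replicate number as a block gave the lowest of these. Exons of Acp2 overlap those of Ddb2 on the opposite strand. Ddb2, a DNA damage recognition gene, lay between 7.13 and 11.4 RPKM in all 16 libraries, with an interaction of -0.13 (unadjusted p = 0.454).

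**Figure D2:**
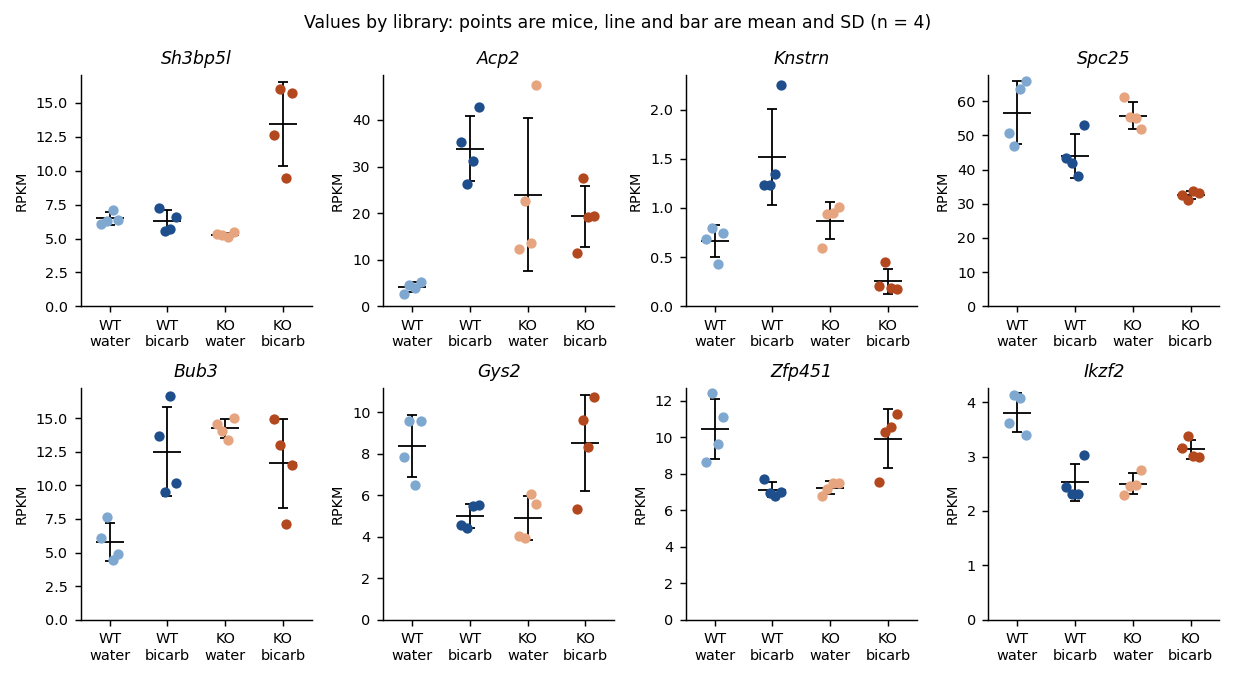
RPKM of 8 genes in each mouse, by genotype and drink, with each point 1 library and the line and bar the mean and SD of 4. Sh3bp5l is high in the loaded knockout libraries, Acp2 is low in wild type on water, and Knstrn is higher on bicarbonate in wild type and lower in the knockout.

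Among the 12 positive genes with the smallest p, a common shape was a lower value on bicarbonate in wild type and a higher one in the knockout. They were picked on the interaction, which such a shape makes large, so this is a description. Gys2, liver-type glycogen synthase, read 7.83, 9.57, 6.49 and 9.57 RPKM in unloaded wild type, 4.57, 4.41, 5.49 and 5.54 RPKM in loaded wild type, 4.02, 3.95, 6.06 and 5.57 RPKM in the knockout on water and 5.36, 9.62, 8.33 and 10.7 RPKM in the knockout on bicarbonate. Wild type on bicarbonate and knockout on water covered much the same range, and the other 2 groups lay mostly above it. The interaction was 1.48 ± 0.29 (limma adjusted p = 0.246). Zfp451, which encodes a SUMO ligase, had group ranges of 8.65 to 12.4, 6.80 to 7.70, 6.79 to 7.51 and 7.55 to 11.3 RPKM in the same order, and an interaction of 0.97 ± 0.18 (adjusted p = 0.144). Ikzf2, the zinc finger transcription factor Helios, had ranges of 3.39 to 4.13, 2.31 to 3.03, 2.30 to 2.76 and 2.99 to 3.38 RPKM, and an interaction of 0.89 ± 0.16 (adjusted p = 0.137). For both, neither genotype's groups overlapped. Ikzf2 shares exonic sequence with the antisense gene Gm29114.

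The other positive genes were smaller or less certain, and none passed the adjusted threshold (limma adjusted p = 0.420 for each of them). Igfbp3, a carrier of insulin-like growth factors, read 73.4 to 101 RPKM in unloaded wild type, 67.00 to 92.4 on bicarbonate, and 62.9 to 77.5 and 89.2 to 104 RPKM in the knockout. The knockout groups did not overlap while the wild-type groups did, and the interaction was 0.65 ± 0.16. Icosl, the ligand of the T cell costimulator ICOS, had an interaction of 0.87 ± 0.20, with 2.59 to 2.83 RPKM in the knockout on water and 3.45 to 4.25 RPKM on bicarbonate. Trappc13, a subunit of a vesicle tethering complex, had 0.50 ± 0.11, Kdm1b, a histone demethylase, 0.71 ± 0.16, and March7, a ubiquitin ligase, 0.79 ± 0.20. Tsga10 stood at 0.84 ± 0.19. Tnfsfm13, annotated as a read-through of Tnfsf12 and Tnfsf13, had 1.02 ± 0.22, and its reads cannot be assigned between these genes with certainty. Sco2, a copper chaperone of cytochrome c oxidase, read 0.930, 1.35, 2.50 and 1.28 RPKM in wild type on water, was listed at 0 in 3 of 4 loaded wild-type libraries and at 0.950 RPKM in the last, and read 2.79 to 6.52 RPKM over the 8 knockout libraries. Its exons overlap Tymp and Ncaph2, and those of Kdm1b and Tsga10 overlap a gene on the opposite strand.

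The negative side held genes that stood higher on bicarbonate in wild type and not in the knockout. These too were picked on the interaction, which favours that shape. Bub3, a spindle checkpoint protein, read 6.12, 7.62, 4.47 and 4.90 RPKM in unloaded wild type and 13.7, 9.53, 16.7 and 10.1 RPKM on bicarbonate, without overlap. In the knockout it read 14.6, 14.02, 13.4 and 15.02 RPKM on water and 14.9, 13.01, 7.14 and 11.5 RPKM on bicarbonate, which overlap. The knockout on water already stood at the level of loaded wild type. The interaction was -1.43 ± 0.32 (limma adjusted p = 0.420). Srrd had the same order, with ranges of 4.14 to 5.94 RPKM in unloaded wild type, 7.55 to 8.77 on bicarbonate, and 8.79 to 11.8 and 5.61 to 11.3 RPKM in the knockout, and an interaction of -1.16 ± 0.26.

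For 2 other negative genes the wild-type groups overlapped and the knockout groups did not. Mrpl28, a protein of the mitochondrial ribosome, lay at 24.2 to 33.3 RPKM over all wild-type libraries, 22.4 to 32.9 RPKM in the knockout on water and 11.03 to 18.9 RPKM in the knockout on bicarbonate. Naa38, a subunit of an N-terminal acetyltransferase, lay at 22.8 to 30.1, 31.8 to 37.5 and 21.5 to 28.00 RPKM in the same order. Their interactions were -0.96 ± 0.22 and -0.61 ± 0.15 (limma adjusted p = 0.420 for each). The remaining negative genes were Fam213b at -0.71 ± 0.17, Meaf6, a subunit of histone acetyltransferase complexes, at -0.72 ± 0.17, Blcap at -0.65 ± 0.15, Cbr4, a carbonyl reductase of mitochondrial fatty acid synthesis, at -0.62 ± 0.13, the spliceosomal protein gene Snrpd2 at -0.47 ± 0.12 and Alg1, a mannosyltransferase of N-glycan synthesis, at -0.46 ± 0.11. None of these 6 passed the adjusted threshold. Exons of Srrd, Alg1, Naa38 and Fam213b overlap a neighbour on the opposite strand.

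Opposite responses that separated the groups completely in both genotypes were rare. In wild type 758 genes (5.86%) had groups that did not overlap, and in the knockout 732 (5.66%). In both at once stood 66 genes, of which 55 (0.425%) moved the same way and 11 (0.085%) in opposite ways. With 5.86% and 5.66% of genes separating, some do so in opposite ways by chance, so the 11 are a description. Of the 11, 9 were lower on bicarbonate in wild type and higher in the knockout, and 2, Knstrn and Snrpd2, were the reverse. Besides Zfp451 and Ikzf2 the 9 held Keg1, a glycine N-acyltransferase-like gene of the kidney, with 1046 to 1696 RPKM in unloaded wild type and 829 to 980.2 RPKM on bicarbonate, against 757 to 998 and 1049.8 to 1153 RPKM in the knockout. Its interaction was 0.75 ± 0.20 (limma adjusted p = 0.462). Cxcl14, a chemokine, had 0.79 ± 0.23, Lgalsl, a galectin-related gene, 0.53 ± 0.16, and Tril, an adaptor of Toll-like receptors, 0.81 ± 0.26 (0.61 without the library that stood apart). Bcl2l12 was listed at 0 in 2 loaded wild-type libraries and 1 knockout water library, and at 0.438 to 2.13 RPKM elsewhere. Casd1 and Irgq, named after their values were seen, had interactions of 0.41 and 0.26. None of these 7 genes passed the adjusted threshold.

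The genes called for bicarbonate in wild type mostly had smaller differences in the knockout, in 17 of 18 cases. They were chosen on the wild-type response, which is also a term of the interaction, so this is a description. Their median absolute response was 0.61 in wild type, and the median knockout response in the same direction was 0.16. The sign was the same in the knockout for 16 of 18, and 8 also had an unadjusted p under 0.05 there, all with the same sign. None but Gm5096 passed for the interaction.

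Wdr72, a vesicle trafficking protein whose loss in people causes enamel defects and distal renal tubular acidosis, showed the largest gap among the genes called as lower in wild type that were above 0 throughout. It read 12.2, 10.1, 8.27 and 8.05 RPKM in unloaded wild type and 4.80, 5.04, 3.337 and 3.75 RPKM on bicarbonate, without overlap. In the knockout it read 5.14, 4.35, 5.31 and 3.4998 RPKM on water and 3.42, 3.91, 5.998 and 3.69 RPKM on bicarbonate. All 8 knockout libraries were at or near the level of loaded wild type. The interaction was 1.05 ± 0.28 (limma adjusted p = 0.462), with a response of -1.17 in wild type and -0.12 in the knockout.

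Others of this kind were Ly6a, a surface protein, with an interaction of 0.35 ± 0.09, the vitamin E carrier Afm with 0.57 ± 0.16, Dbt, a subunit of the branched-chain keto acid dehydrogenase, with 0.34 ± 0.09, and Abat, which degrades GABA, with 0.33 ± 0.10. Slc6a20b, an amino acid transporter, had 0.33 ± 0.12 and Plscr2, a phospholipid scramblase, 0.32 ± 0.11. Gm10639 had 0.52 ± 0.38, with an interval that includes 0. On the higher side, Plcxd1, which was at 0.437 to 0.722 RPKM in unloaded wild type and 1.11 to 2.17 RPKM on bicarbonate, lay at 0.580 to 1.004 RPKM over all knockout libraries, with an interaction of -1.35 ± 0.34. Rasa3, an inhibitor of Ras, the small GTPase gene Arl4d and the splicing regulator Ptbp1 had -0.47 ± 0.20, -0.42 ± 0.16 and -0.28 ± 0.11. The limma adjusted p of the interaction lay between 0.420 and 0.734 for these 11 genes. Exons of Plcxd1, Ptbp1, Slc6a20b and Afm overlap another gene on the opposite strand.

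**Figure D3:**
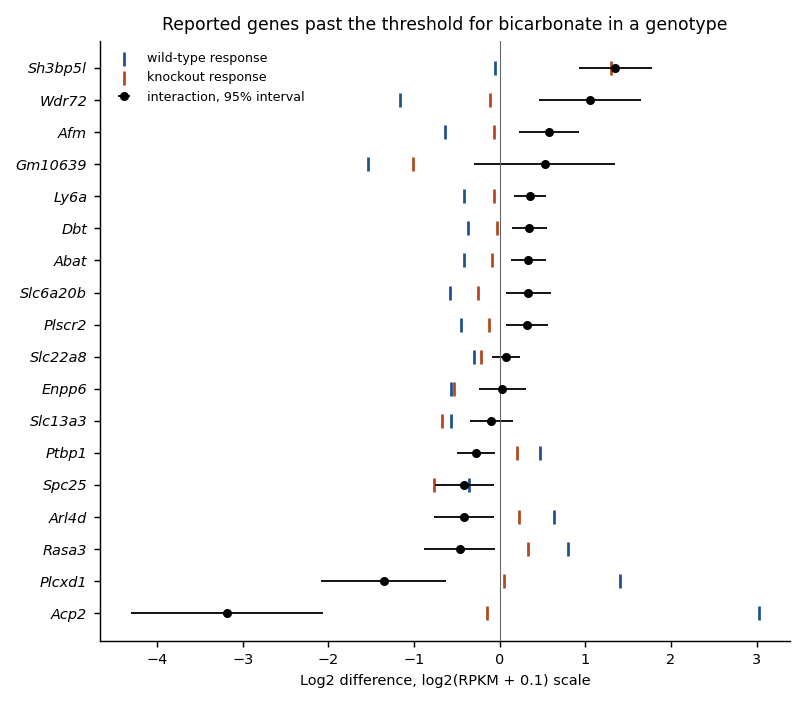
Reported genes past the threshold for bicarbonate in either genotype, without Gm5096, with the wild-type response (blue tick), the knockout response (orange tick) and the interaction with its 95% interval (black) on log2(RPKM + 0.1). Slc13a3, Enpp6 and Slc22a8 have response estimates close together and intervals that include 0, while Acp2, Plcxd1, Wdr72 and Sh3bp5l have responses far apart.

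For 3 solute handling genes the responses were alike within narrow limits. Slc13a3, the sodium-dependent dicarboxylate transporter of the proximal tubule, was the sole gene called in both genotypes. It read 226, 215, 268 and 272 RPKM in unloaded wild type, 149, 171, 169 and 169 RPKM on bicarbonate, 304, 321, 300.2 and 272 RPKM in the knockout on water and 188, 193, 197 and 175 RPKM on bicarbonate. The loaded groups lay below the water groups of their genotype without overlap. It fell by 0.57 on the log2 scale in wild type and by 0.67 in the knockout, and the interaction was -0.10 ± 0.12, with a 95% interval of -0.35 to 0.15 (limma adjusted p = 0.844). Enpp6, a choline phosphodiesterase, had -0.56 and -0.53, with an interval of the interaction of -0.24 to 0.31. Its sign around 0 turned in 4 alternatives, down to -0.08. Slc22a8, the organic anion transporter OAT3, had -0.30 and -0.22, with an interval of -0.09 to 0.24. Hmgcs1, an early enzyme of cholesterol synthesis, and Fam20a, a pseudokinase, had groups that did not overlap in either genotype, with interactions of -0.06 (95% interval -0.35 to 0.22) and -0.03 (-0.60 to 0.54).

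Genes of the cells in which the receptor is known showed no call. The 5 tested type B genes include Insrr itself. None of the 5 had an interaction with an unadjusted p under 0.05, and their median was -0.08, beside 0.02 for all tested genes. This median is the value of Slc26a4 and adds nothing to it. The median lay between -0.18 and -0.02 with each library left out, the ends without wild-type water libraries 2 and 3. These ends are also those of Slc26a4. Slc26a4, which encodes pendrin, read 35.8, 46.6, 33.04 and 38.05 RPKM in unloaded wild type and 35.8, 33.8, 30.4 and 32.8 RPKM on bicarbonate. In the knockout it read 15.8, 21.3, 21.01 and 18.97 RPKM on water and 17.8, 15.1, 15.1 and 14.95 RPKM on bicarbonate. The groups overlapped within each genotype, and all knockout libraries were below all wild-type libraries. The interaction was -0.08 ± 0.16, with a 95% interval of -0.42 to 0.25 (limma adjusted p = 0.911). Slc4a8, a sodium-dependent chloride bicarbonate exchanger, had 0.47 ± 0.26 with 2.12 to 3.41 RPKM in the knockout on water and 4.14 to 4.90 RPKM on bicarbonate. Oxgr1, the receptor for oxoglutarate, had -0.25 ± 0.29 (-0.08 without the library that stood apart) and the transcription factor gene Hmx2 -0.34 ± 0.30.

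The 6 type A genes all had negative values, with a median of -0.44, 1 of them at an unadjusted p under 0.05, beside 46.6% negative among all tested genes. Aqp6, an anion-permeable aquaporin, read 17.4, 14.2, 17.2 and 15.8 RPKM in unloaded wild type, 15.3, 19.6, 35.03 and 22.6 RPKM on bicarbonate, 43.9, 33.6, 23.3 and 32.6 RPKM in the knockout on water and 20.98, 27.1, 30.3 and 29.6 RPKM on bicarbonate, with an interaction of -0.74 ± 0.31 (limma adjusted p = 0.588). The highest loaded wild-type value, 35.0 RPKM, was from the library that stood apart, and without it the interaction was -0.51 (unadjusted p = 0.0673). Slc4a1, the basolateral anion exchanger AE1, had -0.47 ± 0.31 (-0.29 without that library), the transcription factor gene Dmrt2 -0.54 ± 0.27, Adgrf5 -0.41 ± 0.29, Kit -0.30 ± 0.31 and the chloride bicarbonate exchanger gene Slc26a7 -0.30 ± 0.35. The median was -0.30 without that library and -0.29 without wild-type water library 2, and the summed level of the 6 genes lay at 37.4 to 55.2 RPKM in wild type on water, 50.6 to 92.2 on bicarbonate, 55.5 to 90.4 in the knockout on water and 57.7 to 74.9 on bicarbonate.

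Of the 18 V-ATPase and shared intercalated cell genes, 14 were negative and 4 positive, with a median of -0.12, while 46.6% of all tested genes were negative. Of the 18, 4 negative ones had an unadjusted p under 0.05, as did 3.99% of all tested genes. Foxi1, the transcription factor that specifies intercalated cells, read 12.8, 12.9, 10.1 and 9.76 RPKM in unloaded wild type, 11.2, 16.04, 21.6 and 16.96 RPKM on bicarbonate, 15.2, 12.8, 12.1 and 19.6 RPKM in the knockout on water and 11.4, 12.99, 11.3 and 12.7 RPKM on bicarbonate. All 4 groups overlapped, and the interaction was -0.78 ± 0.26 (limma adjusted p = 0.492). The pump subunit genes Atp6v1g3 and Atp6v0d2 had -0.65 ± 0.22 and -0.44 ± 0.16. Without the library that stood apart these 3 values were -0.64, -0.48 and -0.32, and the median of the list was -0.06. None of the 18 passed the adjusted threshold.

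Acid-base genes of other segments gave medians near that of all genes. The median was -0.01 for the 6 genes of proximal bicarbonate reabsorption, -0.05 for the 13 genes of ammoniagenesis and gluconeogenesis, -0.10 for the 11 dicarboxylate, citrate and organic anion transporters and 0.09 for the 14 salt transport genes of the thick limb and distal tubule. Without the library that stood apart the first, second and last of these were 0.04, 0.02 and 0.04, and the salt transport genes had a median of 0.03, with 7 of each sign, once length and GC trends were removed. The third was -0.04 without wild-type water library 2. In these 4 lists 1 gene had an unadjusted p under 0.05, Slc22a12, the urate transporter URAT1, with 166 to 278 and 245 to 279.8 RPKM in wild type, 273 to 353 and 237 to 274 RPKM in the knockout, and an interaction of -0.55 ± 0.20. Among the 13 sodium channel and corticoid response genes the same held for Nr3c1, the glucocorticoid receptor, with 22.4 to 28.6 RPKM in wild type on water against 17.5 to 19.6 on bicarbonate, 15.2 to 18.3 and 16.3 to 18.4 RPKM in the knockout, and an interaction of 0.44 ± 0.12 (limma adjusted p = 0.462). Gpcpd1, which breaks down the osmolyte glycerophosphocholine, was the sole such gene among 12 for collecting duct water and osmolytes, at 0.58 ± 0.19. The median of those 12 was 0.20, 0.04 without the library that stood apart and 0.12 without knockout water library 1.

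Of 15 fasting genes and targets of PPAR alpha, the lipid-sensing nuclear receptor, 13 were negative, with a median of -0.69, and 3 of these had an unadjusted p under 0.05, beside 46.6% and 3.99% of all tested genes. Acot2, a mitochondrial thioesterase, read 11.9, 9.27, 22.5 and 18.9 RPKM in unloaded wild type, 25.3, 29.96, 41.4 and 21.9 RPKM on bicarbonate, 34.9, 21.1, 24.03 and 27.6 RPKM in the knockout on water and 22.9, 26.2, 35.9 and 30.5 RPKM on bicarbonate. The interaction was -0.86 ± 0.38 (limma adjusted p = 0.596). Vnn1, a pantetheinase, had -0.65 ± 0.27, and for both genes wild-type water libraries 1 and 2 were the lowest of the 16. The median response of the list was 0.78 in wild type and 0.06 in the knockout. Leaving out each library in turn gave medians of the interaction from -0.81 to -0.53.

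Cholesterol synthesis genes leaned the other way, by less. Of 17 genes 16 were positive, with a median of 0.15, and the exception was Hmgcs1. Fdft1, squalene synthase, alone had an unadjusted p under 0.05, at 0.88 ± 0.37, with 4.61 to 10.2 RPKM in unloaded wild type, 2.76 to 4.88 RPKM on bicarbonate and 3.42 to 6.08 RPKM over the knockout. Among all tested genes 53.4% were positive. The median was 0.27 without wild-type bicarbonate library 2 and 0.25 without wild-type water library 4.

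Insulin and insulin-like growth factor genes, the family to which the receptor is related, were positive for 18 of 22, with a median of 0.15. Besides Igfbp3, Irs2, a docking protein of the insulin receptor, had an unadjusted p under 0.05 and a positive value of 0.63 ± 0.25, with 5.10 to 9.31 RPKM over wild type, 8.45 to 11.8 RPKM in the knockout on water and 9.21 to 13.9 RPKM on bicarbonate. Akt1, a kinase of the same pathway, was negative, at -0.30 ± 0.14. With the trend on transcript length and GC content removed, the median was 0.05, with 15 positive and 7 negative. None of the 22 passed the adjusted threshold. Among 8 renin and angiotensin genes 6 were positive, with a median of 0.32 (0.21 without the library that stood apart). Mme, neprilysin, which degrades small peptides, had 0.49 ± 0.20 (0.38 without that library).

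Of 12 cell division genes 11 were negative, with a median of -0.55, and 3 of these had an unadjusted p under 0.05, beside 46.6% and 3.99% of all tested genes. Spc25, a kinetochore protein, was called in the knockout. It read 50.6, 46.9, 63.4 and 65.8 RPKM in unloaded wild type, 43.3, 41.8, 38.03 and 53.1 RPKM on bicarbonate, 61.2, 55.3, 55.01 and 51.8 RPKM in the knockout on water and 32.5, 30.97, 33.7 and 33.1 RPKM on bicarbonate. It fell by 0.77 on the log2 scale in the knockout (limma adjusted p = 0.0258), was -0.36 in wild type (adjusted p = 0.209), and had an interaction of -0.41 ± 0.16 (adjusted p = 0.551). Its loaded knockout libraries lay below all 12 others. Cdc20, an activator of the anaphase-promoting complex, had -1.44 ± 0.40, with values below 1 RPKM in 15 of 16 libraries. Its exons overlap those of Elovl1 on the opposite strand. Group means of Mki67, Ccnb1, Ccnb2 and Birc5 lay at 0.385 to 0.893 RPKM, and those of Knstrn at 0.256 to 1.52 RPKM. Those of Top2a and Ccna2 lay at 0.655 to 1.37 RPKM. At such levels the pseudocount of 0.1 affects the size of an interaction. Besides Spc25, the members at higher levels were Pcna, Mcm2 and Mcm6. Their interactions were -0.35 ± 0.18, -0.33 ± 0.21 and 0.02 ± 0.29, none at an unadjusted p under 0.05. The median of the list was -0.91 without knockout water library 2 and -0.40 without wild-type bicarbonate library 4.

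Among 13 tubule injury genes 9 were negative, with a median of -0.66 that was -0.35 without the library that stood apart. Fgb and Fgg, fibrinogen chains, read 1.51, 0.705, 4.55 and 0.657 and 14.9, 10.9, 41.1 and 8.81 RPKM in loaded wild type, so the third library was the highest for both. Their interactions were -1.72 ± 0.64 and -1.36 ± 0.61, or -1.16 and -0.90 without it. Tnfrsf12a, the receptor of TWEAK, had -0.91 ± 0.29 with that library and -0.72 without. In the knockout Fgb averaged 0.302 RPKM on water and 0.0731 RPKM on bicarbonate, below the floor and near the pseudocount of 0.1. Its response was 0.56 in wild type and -1.16 in the knockout, so these low values carry much of its interaction. Over the alternatives the interaction of Fgb ranged from -2.42 to -0.68.

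Interferon response genes were positive in 13 of 15 cases, with a median of 0.33, and 3 of these had an unadjusted p under 0.05, beside 53.4% and 4.2% of all tested genes. Usp18, which limits the interferon response, read 3.02, 2.29, 2.19 and 2.08 RPKM in unloaded wild type and 1.67, 1.74, 1.90 and 2.35 RPKM on bicarbonate. In the knockout it read 1.79, 1.73, 1.85 and 1.96 RPKM on water and 2.28, 2.01, 1.97 and 2.66 RPKM on bicarbonate. The wild-type groups overlapped and the knockout groups did not. The interaction was 0.57 ± 0.21 (limma adjusted p = 0.546), and Ifit2 had 0.55 ± 0.23. The median response of the list was -0.31 in wild type and -0.06 in the knockout, and the median interaction was 0.16 without wild-type water library 2 and 0.22 without wild-type bicarbonate library 2. Of 17 core clock genes 11 were positive, with a median of 0.19 that lay between 0.09 and 0.35 with each library left out, the ends without wild-type bicarbonate libraries 1 and 4. In this list Nr1d2, a repressor of the clock, had 0.62 ± 0.18 with 39.3 to 47.6 RPKM in unloaded wild type and 23.1 to 36.4 RPKM on bicarbonate. Of 13 immediate early genes 11 were negative, with a median of -0.28 that was -0.12 without the library that stood apart and -0.08 without knockout bicarbonate library 4. Nr4a1 was listed at 0 in wild-type water library 1 and had an unadjusted p of 0.0181.

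Red cell and fat markers had the lowest list medians with all 16 libraries, which for fat did not hold without knockout bicarbonate library 2. All 5 red cell genes were negative, with a median of -1.69 (-2.11 to -1.30 with each library left out). Of the 5, 4 had an unadjusted p under 0.05, beside 46.6% negative and 3.99% negative with such a p among all tested genes. The 5 mark the same cell type, so they are not independent of each other. The copies Hba-a2 and Hba-a1, alpha globin genes too similar to split with certainty, had -1.69 ± 0.67 and -1.82 ± 0.75, and Alas2, the first enzyme of heme synthesis in red cells, -1.11 ± 0.46. The summed level of the 5 genes lay at 501.4 to 1572 RPKM in wild type on water, 811 to 1549.9 on bicarbonate, 373 to 2068 in the knockout on water and 234 to 612 RPKM in the knockout on bicarbonate. All 5 adipose genes were also negative, with a median of -1.52 and none at an unadjusted p under 0.05. The adipose median was -0.40 without knockout bicarbonate library 2, -0.97 without library 4 of that group and -2.62 without library 1. Their summed level lay at 100.2 to 621, 108 to 499, 90.0 to 301 and 69.8 to 536 RPKM in the same order. None of these markers was at 0 in a whole group, and their part in the other interactions was not tested. Endothelial, stromal and immune markers had medians of 0.08, -0.03 and 0.03. Their ranges over the fits with 1 library left out spanned 0 (-0.03 to 0.10, -0.25 to 0.10 and -0.11 to 0.09), and they were -0.03, -0.06 and -0.06 without the library that stood apart. Nphs1, nephrin of the podocyte filter, had -0.74 ± 0.26 among 7 podocyte genes with a median of 0.03 (0.05 without that library).

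**Figure D4:**
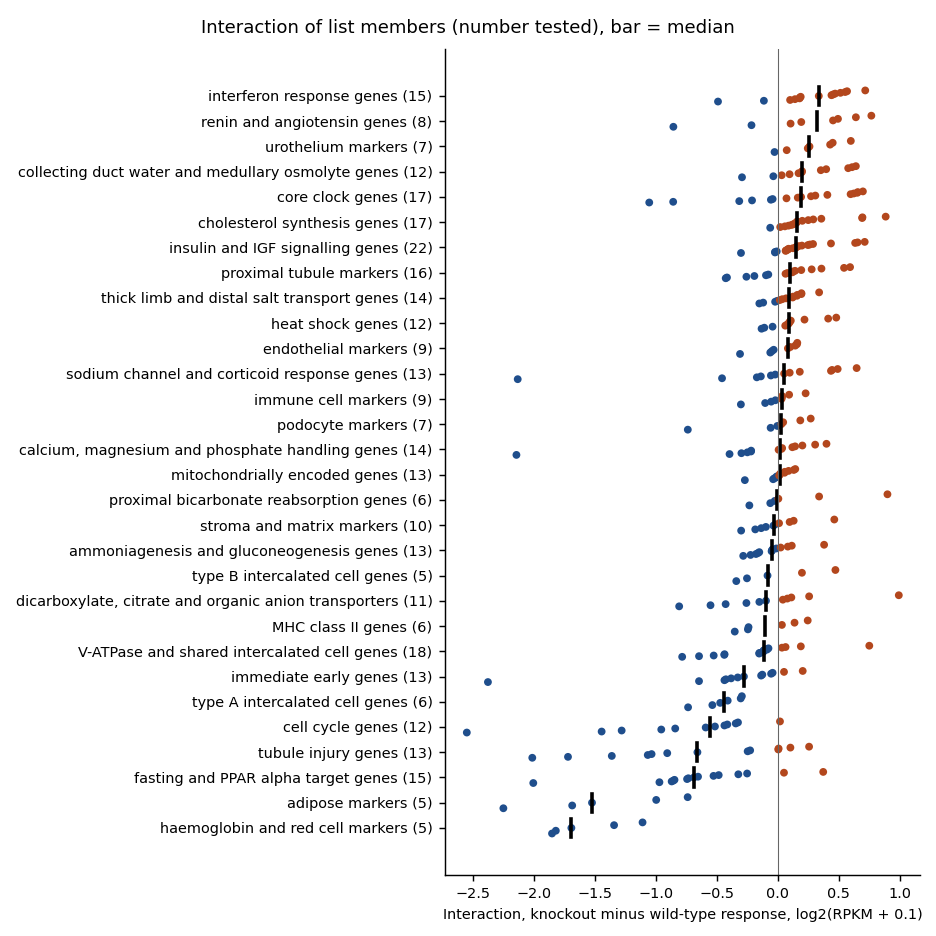
Interaction of the tested members of 30 gene lists on log2(RPKM + 0.1), with each dot 1 gene (orange above 0, blue below) and the black bar the median of the list. Red cell, adipose, PPAR alpha, tubule injury and cell cycle lists have the lowest medians and the interferon list the highest with all 16 libraries, while no member passed the adjusted threshold.

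Across all genes the interaction followed transcript length. The median was -0.22 for the 34 genes with a longest transcript of up to 500 nt and -0.16 for the 466 genes from there to 1000 nt. It was -0.05 for 2123 genes up to 2000 nt, 0.00 for 5433 genes up to 4000 nt and 0.08 for 4887 longer genes. The wild-type response went from 0.08 to -0.03 over these bins and the knockout response from -0.09 to 0.05. By GC content, the median interaction was 0.09 for the 2589 genes of lowest GC and -0.05 for the 2589 of highest GC. Mrpl28 and Naa38 have longest transcripts of 1134 and 671 nt, and Sh3bp5l has one of 6171 nt. With both trends removed from each library the interaction passed for 4 genes, among them Sh3bp5l.

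**Figure D5:**
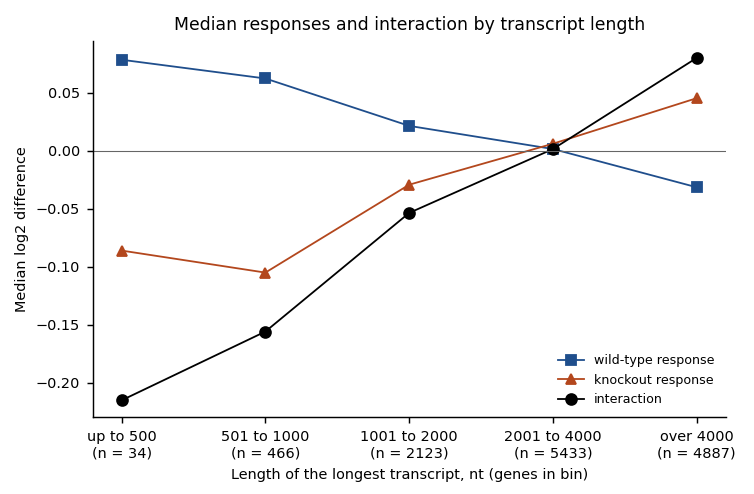
Median log2 difference of bicarbonate minus water in wild type (blue squares) and the knockout (orange triangles), and their difference, the interaction (black circles), in 5 bins of transcript length with the number of genes under each. The interaction goes from -0.22 in the shortest bin to 0.08 in the longest.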

How the data were processed

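RPKM values of genes, 1 column per library in 1 table, were deposited by the authors. The submitters' processing notes list edgeR 3.34.0, Salmon 1.5.2 and the builds mm10 and GRCm39 without a role for any of them. The annotation used to make the table is therefore unknown here. The values gave no whole reads, so depth is unknown and counting intervals are left out. No 2 libraries of a group were identical.

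Symbols, positions, transcript lengths and GC content came from GENCODE M21 on GRCm38, which matched all 13430 genes. Besides the overlaps given above, exons of Fdft1, Slc22a12, Bcl2l12, Keg1, Tril, Irs2, Usp18, Fgg, Nphs1 and Alas2 overlap a gene on the opposite strand. Genes at or above an RPKM of 0.5 in 4 libraries or more entered a limma test (version 3.58.1, R 4.3.3) of log2(RPKM + 0.1), a scale that understates changes of low genes. The trended and robust variance was used in 1 fit of 4 group means with 12 residual degrees of freedom. Tests were two-sided, with Benjamini-Hochberg adjustment over the genes of a comparison and a threshold of 0.05. The procedure was tested on simulated data.

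The interaction, the 31 gene lists (367 genes, 339 tested) and the rule for naming genes were chosen with earlier results of these data known. Lists are described by counts and medians, to be read beside the shares and the median of all tested genes, with no set test. The rule named Insrr, the genes past the threshold for the interaction, the 12 smallest p of each sign with a mean RPKM of at least 1 in a group and a regular symbol, and the genes called for bicarbonate in a genotype. It added all tested type A and type B intercalated cell genes, up to 3 genes with the smallest p per other list, and 8 genes whose groups separate in opposite directions. Kap, Ddb2, Hmgcs1, Fam20a, Casd1 and Irgq were added after their values were seen. Some genes that the rule named are not reported here.

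Alternatives were other pseudocounts (0.01 and 1), no filter and a stricter filter (RPKM at or above 1 in 8 libraries), 2 other scalings, removal of length and GC trends, no trended variance, array weights, a replicate block and each library left out. The fit on genes above 0 in every library and the list medians without a library were added after the data were seen. Promoter windows came from RefSeq on GRCm38.p6.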

Additional observations from a re-analysis of the deposited data

Results flagged for a closer look

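The interaction passed the adjusted threshold for 2 genes, by limma with adjustment over all tested genes. These were Sh3bp5l, with an adjusted p of 0.0471, and Gm5096, with an adjusted p of 0.000697 that is no valid test, since it reached the floor on low values only through wild-type water.

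In 16 of 324 groups of 4 libraries examined, for 81 genes, 1 library stood far from the other 3 by Dixon's criterion. Chance gives about 1 in 20, so this number is no more than chance would give.

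Knstrn had such a library in 3 of its 4 groups: wild-type bicarbonate 4 at 2.25 RPKM (others 1.24 to 1.34), knockout water 1 at 0.589 RPKM (0.941 to 1.005) and knockout bicarbonate 2 at 0.448 RPKM (0.178 to 0.210). Cdc20, also a cell division gene, was at 1.80 RPKM in wild-type bicarbonate 4, against 0.588 to 0.782 RPKM in the others. Sco2 was at 0.950 RPKM in the same library and listed at 0 in the other 3.

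The library that stood apart on the second principal component, wild-type bicarbonate 3, was the low one for Tril, at 1.18 RPKM (others 2.03 to 2.17), and for Keg1, at 829 RPKM (957 to 980.2). In the other wild-type libraries, Kdm1b was high in bicarbonate 2 at 16.7 RPKM, Slc13a3 low in bicarbonate 1 at 149 RPKM and Nr1d2 high in water 2 at 47.6 RPKM.

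Among knockout libraries on water, Slc22a8 was low in library 4 at 234 RPKM, Hmx2 low in library 1 at 3.04 RPKM and Lgalsl low in library 2 at 5.87 RPKM. On bicarbonate, Slc26a4 was high in library 1 at 17.8 RPKM, Slc6a20b low in library 3 at 49.8 RPKM and Nr3c1 low in library 2 at 16.3 RPKM.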

How the results depend on the processing

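The interaction passed for 2 genes in the reported fit, for 0 with a pseudocount of 0.01 and with the stricter filter, for 1 with a pseudocount of 1 and with array weights, and for 4 with length and GC trends removed and with no trend and no robust fitting. Leaving out each library in turn gave 1 to 5 genes. These counts include Gm5096, whose call is no valid test. No filter, quantile normalization and median-of-ratios scaling gave 3 each. Replicate numbers do not pair animals in the labels. Same-numbered deviations correlated at -0.0975 to 0.105 over 24 pairs, and 6 of 16 libraries correlated best with their own number. With the replicate number as a block 2 genes passed, Acp2 and Gm5096, and Sh3bp5l had an adjusted p of 0.0924 by limma.

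The wild-type count of 18 was 34 with quantile normalization, 5 with length and GC trends removed and 2 with the replicate block, and 2 to 82 with each library left out, the last without wild-type bicarbonate library 4. The knockout count of 3 stayed at 2 to 4 with each library left out. The cause was not tested for any of these. Of 81 genes, 80 kept the sign of their interaction in all settings. Enpp6, at 0.03, was -0.083 with length and GC trends removed and -0.027 to 0.099 with each library left out, below 0 without wild-type bicarbonate library 1, knockout water library 2 or knockout bicarbonate library 2. Among genes not called, Knstrn passed in 7 settings, Acp2 in 3, Ikzf2 in 2, and Gys2, Sco2, Srrd and Zfp451 in 1 each. Depth could not be read from RPKM, and 4 animals a group left a median half-width of 0.44 for an interaction.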

Other observations

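Urothelium markers, which the slices could hold from the renal pelvis, were positive for 6 of 7 genes, with a median interaction of 0.26 (0.45 without wild-type bicarbonate library 3 and 0.13 without knockout bicarbonate library 1) and none at an unadjusted p under 0.05. Heat shock genes were positive for 9 of 12, with a median of 0.09 (0.02 without knockout bicarbonate library 1). The 13 mitochondrially encoded genes had a median of 0.02, 0.10 without wild-type bicarbonate library 3, although their summed RPKM was at 945861 to 1179860.0 in wild type and 1993980.0 to 2464320.0 in the knockout. MHC class II genes had a median of -0.10 over 6 genes, with 3 of each sign, and of -0.26 to 0.06 with each library left out. Genes for calcium, magnesium and phosphate handling had a median of 0.02 over 14 genes (-0.09 to 0.05 with each library left out). The median was 0.005 without wild-type bicarbonate library 3, and none of the 14 had an unadjusted p under 0.05.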
